A study of Mus musculus with 6 samples.

Results

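The V and J genes of the T cell receptor alpha chain were followed in CD8 T cells of mice carrying B16-OVA tumors, a melanoma line that expresses ovalbumin. The genes were taken by symbol, those starting with Trav or Traj, which gave 188 of the 32285 genes in the tables, 128 Trav and 60 Traj. Control mice carried CD8-Cre and Rosa26Tomato, and CD8-IFNγRKO mice carried the same alleles plus floxed IFNgR1, so that the interferon-γ receptor was lost in mature CD8 T cells. CD45+CD3+CD8+Tomato+ cells of tumors and draining lymph nodes (LN), harvested from day 12 after engraftment, gave 4 scRNA-seq libraries, and the tumors also gave 2 libraries of receptor sequences (scTCR-seq). Each library pooled 3 mice, so every group was 1 library. No test between genotypes or tissues was possible, and each interval below is a 95% counting interval that leaves out the spread between mice. Intervals over cells or UMIs also treat the cells of 1 clone, and their UMIs, as separate draws.

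An alpha chain gene is built in the thymus by joining 1 V segment to 1 J segment, with bases trimmed and added at the join. The join encodes the CDR3, the loop that lies over the peptide in most receptors. Daughter cells inherit the rearranged gene, so cells with the same CDR3 sequence are counted as a clone. Both alleles can rearrange, and some cells make more than 1 alpha chain. The mouse locus holds repeated blocks of V genes, whose extra copies carry D or N in their names (Trav12d-3 and Trav12n-3 beside Trav12-3). In RefSeq (GRCm38.p6) all 188 genes lay on chromosome 14, the V genes within chr14:52427967-53977678 and the J genes within chr14:54155005-54218842, upstream of the constant gene Trac.

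A clone is defined here by the CDR3 nucleotide sequence of the TRA contig with the most UMIs in a cell that had both an alpha and a beta chain. The kept cells with both chains numbered 5937 in the CD8-IFNγRKO tumor and 4284 in the control tumor, in 418 and 245 clones. The CDR3 sequences of the 3 largest clones of each tumor are shown because they decide the usage per cell. Capitals mark the end that most clones with the same J gene had in common.
CD8-IFNγRKO, Trav7d-2 with Traj21, 1463 cells: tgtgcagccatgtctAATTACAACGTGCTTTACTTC
CD8-IFNγRKO, Trav12d-3 with Traj39, 1200 cells: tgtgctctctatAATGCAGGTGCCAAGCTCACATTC
CD8-IFNγRKO, Trav8d-2 with Traj7, 315 cells: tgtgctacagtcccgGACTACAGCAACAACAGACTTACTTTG
control, Trav12-3 with Traj42, 1105 cells: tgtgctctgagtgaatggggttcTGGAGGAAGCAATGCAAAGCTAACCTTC
control, Trav5-1 with Traj16, 1009 cells: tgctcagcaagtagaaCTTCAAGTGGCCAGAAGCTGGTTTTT
control, Trav13d-2 with Traj39, 516 cells: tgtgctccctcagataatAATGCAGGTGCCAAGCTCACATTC

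Traj7, a J gene near the constant gene (chr14:54211470-54211528), was the one J gene that stood high in both tumors among clones of more than 1 cell. Its clones are shown because they kept nearly the same J end behind different V genes, as clones of other J genes also did. The capitals mark the 27 bases shared by 43 of the 47 Traj7 clones.
CD8-IFNγRKO, Trav7d-5, 255 cells: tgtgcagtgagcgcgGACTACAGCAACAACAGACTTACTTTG
CD8-IFNγRKO, Trav10, 216 cells: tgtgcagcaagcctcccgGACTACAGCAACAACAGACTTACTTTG
CD8-IFNγRKO, Trav12d-2, 25 cells: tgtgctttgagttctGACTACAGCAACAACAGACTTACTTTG
CD8-IFNγRKO, Trav12d-2, 16 cells: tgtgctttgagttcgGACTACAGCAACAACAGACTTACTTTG
control, Trav9d-3, 172 cells: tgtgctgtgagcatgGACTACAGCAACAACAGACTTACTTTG
control, Trav5-4, 47 cells: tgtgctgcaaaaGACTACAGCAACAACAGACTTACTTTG
control, Trav14n-3, 45 cells: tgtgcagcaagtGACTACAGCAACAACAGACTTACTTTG
control, Trav3d-3, 35 cells: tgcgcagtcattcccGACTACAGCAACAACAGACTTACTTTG
both tumors, Trav10 in 6 CD8-IFNγRKO cells and Trav7d-2 in 67 control cells: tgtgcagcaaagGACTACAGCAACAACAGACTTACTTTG

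The 4 scRNA-seq libraries held 6641 to 8636 kept cells. Their summed UMIs were 93995655 in the CD8-IFNγRKO tumor, 59497796 in the control tumor, 28841136 in the CD8-IFNγRKO LN and 29934686 in the control LN. The CD8 T cell markers summed to 3155 to 4601 CPM, UMIs scaled to the same library total. The B cell, myeloid, CD4 T, NK and melanoma lists each stayed under 20 CPM in sum. The γδ T list reached 26.4 CPM in the CD8-IFNγRKO tumor, 12.7 in the control tumor and under 2 in both LN. Its members did not move together. Tcrg-C1 had 16.2 CPM in the CD8-IFNγRKO tumor and 0.303 in the control tumor, and Tcrg-C2 had 9.86 and 12.3. Trdc had 0.383 and 0.0336 CPM in these tumors but 1.53 and 1.64 in the CD8-IFNγRKO and control LN. Ifngr1, the deleted gene, had 237 CPM in the CD8-IFNγRKO tumor against 718 in the control tumor, and 137 against 182 in LN, so that its transcript was lower but not absent. Pairs of scRNA-seq libraries shared 169 to 249 barcodes, and the scTCR-seq libraries shared 50, none of them with the same alpha CDR3.

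To see which alpha V genes the cells transcribed, Trav UMIs were summed in each library. They made up 495 CPM (491 to 500) in the CD8-IFNγRKO tumor, 742 CPM (736 to 749) in the control tumor, 719 CPM (709 to 729) in the CD8-IFNγRKO LN and 709 CPM (700 to 719) in the control LN. At least 1 UMI was seen for 96, 94, 109 and 104 of the 128 Trav genes in the same order. Traj UMIs were far fewer, 920, 789, 437 and 415, and 32 to 41 of the 60 Traj genes were seen. The Trav sum of the CD8-IFNγRKO tumor was the lowest of the 4. Among V genes with at least 20 cells, some had a scRNA-seq UMI in under 5% of the cells whose TRA contig carried them. They were the V genes of 55.8% of CD8-IFNγRKO and 27.9% of control tumor cells with both chains. Their part in the low sum was not tested, so the sum is no measure of alpha chain transcription. Trac, the constant gene, had 234 CPM in the CD8-IFNγRKO tumor and 260 in the control tumor.

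A few V genes held most Trav UMIs of the tumors, while the LN spread their UMIs over many. The 8 leading Trav genes held 67.5% of Trav UMIs in the CD8-IFNγRKO tumor and 83.6% in the control tumor, against 30.6% and 29.9% in the CD8-IFNγRKO and control LN. The leading gene was Trav8d-2 in the CD8-IFNγRKO tumor, with 17.8% of Trav UMIs against 0.0181% in the control tumor. In the control tumor it was Trav5-1, with 30.1% against 1.02% in the CD8-IFNγRKO tumor. Trav12-3 followed there, with 27.2% against 0.226%. Trav12-2 led both LN, with 5.64% in CD8-IFNγRKO and 5.41% in control. It stood at 7.11% and 7.68% in the tumors, the closest pair of values among the leading genes of the tumors. These shares do not rank the V genes by cells. Trav8d-2 was the V gene of the leading TRA contig, the one with the most UMIs, in 5.34% of CD8-IFNγRKO tumor cells with both chains. Some cells outside this share held it as a second contig, as 524 cells had it together with a Trav7d-5 contig. Trav7d-2 and Trav12d-3, in the leading contig of 25.1% and 20.4% of the cells with both chains, were hardly counted in the scRNA-seq.

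**Figure D1:**
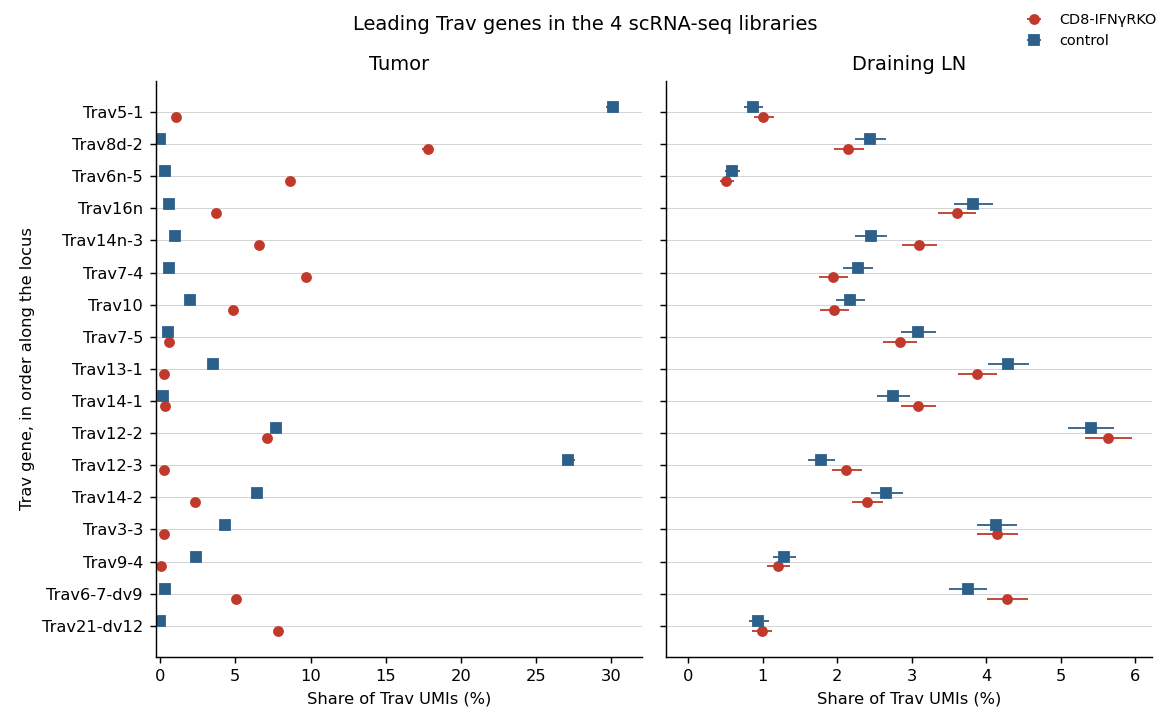
Share of all Trav UMIs (%, x axis) for each Trav gene among the 8 leading genes of any scRNA-seq library, in tumor (left) and LN (right, with its own scale). Circles are CD8-IFNγRKO, squares are control and bars are Clopper-Pearson 95% intervals. In tumor the genotypes sit far apart for most genes, with Trav5-1 at 30.1% and Trav12-3 at 27.2% in control and Trav8d-2 at 17.8% in CD8-IFNγRKO, while in LN every gene is under 6% and the genotypes sit close together. The use of V genes that the scRNA-seq hardly counted, such as Trav7d-2, cannot be read from these shares.

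The summed difference of Trav shares, which is 0% for identical and 100% for separate usage, was 79.1% between the CD8-IFNγRKO and control tumors and 6.01% between their LN. Each tumor stood 55.4 to 62.0% from either LN. The tumor of each genotype was thus farther from the other tumor than from an LN of either genotype. These libraries differed in depth and held 1 pool of mice each, and the part of clonal expansion, mouse and genotype in these distances cannot be told apart.

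Gene by gene, a ratio was called when CPM plus 1 differed more than 2-fold, for genes with at least 100 UMIs over both libraries. In tumor 47 of the 128 Trav genes reached that number, and 34 of them were called, 18 higher and 16 lower in CD8-IFNγRKO, where 2.31% of the 11329 genes tested were called. All 4 Traj genes that reached it were called as well, 3 higher and 1 lower. In LN 67 Trav genes reached it and none was called, where 0.109% of 10080 genes were called. No Traj gene reached it. The added 1 CPM shrinks the ratios of genes with few CPM, so a 2-fold difference of such a gene can go uncalled. With 0.5 CPM added, none of the 67 was called in LN either, where 0.139% of all genes tested were called. The median size of the log2 ratio over the tested Trav genes was 2.02 in tumor and 0.13 in LN, against 0.19 and 0.08 over all genes tested. Many of the tumor genes reached 100 UMIs through the library where they were high, so the count describes these libraries and is no support for a genotype effect. With 5 CPM added, 20 Trav genes and 1 Traj gene were called in tumor, where 0.971% of all genes tested were called.

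Trav8d-2 had 8280 UMIs in the CD8-IFNγRKO tumor, 8 in the control tumor, 445 in the CD8-IFNγRKO LN and 519 in the control LN, a log2 ratio of 6.30 (6.14 to 6.40) between the tumors. Trav21-dv12 had 3663, 3, 204 and 200 UMIs in the same order, and its log2 ratio was 5.25 (5.12 to 5.31). Trav7-6 had 2223, 12, 218 and 188 UMIs (4.36, 4.18 to 4.48). All of these genes had similar counts in the 2 LN and at most 12 UMIs in the control tumor. At such counts the added 1 CPM set much of the ratio and of its interval. Trav14-3 (3.78) and Trav6n-5 (3.78) completed the 5 highest. The lowest was Trav12-3, with 105 UMIs in the CD8-IFNγRKO tumor, 11997 in the control tumor, 440 in the CD8-IFNγRKO LN and 378 in the control LN (-6.58, -6.73 to -6.43). Trav5-1 had 474, 13298, 209 and 185 UMIs (-5.22, -5.33 to -5.10). Trav3-3 (-3.97), Trav9-4 (-3.90) and Trav13-1 (-3.50) came next. For these 5 the control tumor held the high values.

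In LN the extremes with 1 CPM added were smaller than in tumor, and that amount shrinks the ratios of genes with few UMIs. The lowest log2 ratio was that of Trav13d-4, with 60 UMIs in CD8-IFNγRKO and 125 in control (-0.75, -1.08 to -0.41), and the highest was that of Trav4-4-dv10, with 500 and 363 UMIs (0.48, 0.30 to 0.67). Trav15d-1-dv6d-1 (-0.47), Trav14-3 (-0.44), Trav6-2 (-0.30) and Trav16d-dv11 (-0.25) were the next lowest. Trav15-1-dv6-1 (0.48), Trav13n-3 (0.44), Trav9n-4 (0.41) and Trav12n-3 (0.39) were the next highest.

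Between tissues more Trav genes were called lower than higher in the tumor. In CD8-IFNγRKO 51 of 66 were called, 7 higher and 44 lower in tumor than in LN, where 30.3% of all genes were called. In control 43 of 62 were called, 3 higher and 40 lower, against 28.2% of all genes. Many of these genes reached 100 UMIs through the LN, where they were high, so the counts describe these libraries. With no filter on UMIs 7 were higher and 50 lower of 111 in CD8-IFNγRKO, and 3 higher and 47 lower of 108 in control. Over all genes, 19.4% and 18.6% were called without the filter. With 5 CPM added, 29 and 28 were called, against 19.2% and 17.8% of all genes.

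Among the other genes of the receptor, Trac, the constant gene of the alpha chain, had 234 CPM in the CD8-IFNγRKO tumor, 260 in the control tumor, 179 in the CD8-IFNγRKO LN and 171 in the control LN. The constant gene of the beta chain Trbc1 had 149, 201, 167 and 145 CPM, and Trbc2 had 651, 533, 639 and 605. The CD3 genes, whose proteins carry the receptor's signal into the cell, were lower in the CD8-IFNγRKO tumor than in the control tumor by counts alone, with log2 ratios of -0.38 for Cd3d, -0.43 for Cd3e, -0.42 for Cd3g and -0.68 for Cd247. None of these genes passed 2-fold. Rag1 and Rag2, the recombinase that joins V to J, had 0 UMIs in all 4 libraries. Dntt, which adds bases at the joins, had 0 UMIs in both tumors and 94 and 81 in the CD8-IFNγRKO and control LN, which held fewer UMIs in all. Trdc, the constant gene of the delta chain, had 36, 2, 44 and 49 UMIs, and Ptcra, the alpha chain's stand-in in thymocytes, had 33, 4, 7 and 7.

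The receptor libraries gave the V and J gene cell by cell. Cells with both chains were 68.7% of kept cells in the CD8-IFNγRKO tumor and 60.3% in the control tumor, with a median of 9 and 7 UMIs for the alpha contig. They used 73 and 67 V genes and 43 and 41 J genes. Clones of 1 cell numbered 350 of 418 in CD8-IFNγRKO and 173 of 245 in control.

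Per cell, by the leading TRA contig alone, usage followed the largest clones. Trav7d-2 (chr14:52683964-52684472) was carried by 25.1% (24.0 to 26.3) of the cells in CD8-IFNγRKO and by 3.06% in control. Trav12d-3 (chr14:52929789-52930282) was carried by 20.4% and 3.03%. In control, Trav12-3 (chr14:53621752-53622245) was carried by 26.0% (24.6 to 27.3) against 0.0505% in CD8-IFNγRKO, Trav5-1 (chr14:52622566-52623082) by 23.6% against 0.0168% and Trav13d-2 (chr14:52942764-52943289) by 12.1% against 0.152%. In the tumor where it led, each of these 5 V genes drew nearly all of its cells from 1 clone, as the counts beside the sequences show. Trav12d-3 is the D copy of Trav12-3, and the Trav12 family was carried by 26.8% of CD8-IFNγRKO and 31.9% of control cells. For the Trav7 family, that of Trav7d-2, it was 37.9% and 4.55%. The next V genes were Trav8d-2 with 5.34%, Trav7-4 with 4.65%, Trav7d-5 with 4.35%, Trav12-2 with 4.09%, Trav10 with 4.03% and Trav21-dv12 with 3.34% of CD8-IFNγRKO cells, and Trav9d-3 with 4.51%, Trav13-1 with 3.73% and Trav14-2 with 2.92% of control cells.

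Per clone, none of the V genes that led per cell stood first, but those of CD8-IFNγRKO stayed near the top there. Trav12d-3 had 14 of 418 CD8-IFNγRKO clones (3.35%, 1.84 to 5.56) and Trav7d-2 had 13 (3.11%, 1.67 to 5.26). These intervals overlapped that of the leader. In control Trav5-1 and Trav13d-2 had 2 clones each. The most used were Trav13-1 with 18 of 418 clones in CD8-IFNγRKO (4.31%, 2.57 to 6.72) and Trav6-6 with 18 of 245 in control (7.35%, 4.41 to 11.4). Trav6-6 had 13 clones in CD8-IFNγRKO (3.11%, 1.67 to 5.26), and the intervals overlapped. Trav9d-3 had 17 CD8-IFNγRKO and 11 control clones, Trav12d-3 had 14 and 7, Trav12-2 had 12 and 10, Trav14d-1 had 8 and 11, and Trav3d-3 had 13 and 10. Trav12-3 was in only 3 clones of each tumor. The probability that a pair of cells shared the V gene was 12.1% in CD8-IFNγRKO and 14.6% in control, and for a pair of clones it was 1.87% and 2.26%. The difference of V usage between the tumors was 82.3% per cell and 30.9% per clone. When D and N copies were merged with their namesakes, it was 61.4% per cell and 19.6% per clone. Over every barcode with a TRA contig it was 19.96% per clone. The part of counting error in the values per clone was not tested.

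The J genes showed the same contrast. Per cell Traj21 was carried by 30.8% of CD8-IFNγRKO cells against 1.00% of control cells, and Traj39 by 20.6% against 12.1%. Traj42 was carried by 26.0% of control cells against 0.0505%, and Traj16 by 24.2% against 0.0505%. Traj39 was high in both tumors through unrelated sequences, those of the Trav12d-3 clone in CD8-IFNγRKO and of the Trav13d-2 clone in control shown above. Traj33 had 7.90% of CD8-IFNγRKO and 0.444% of control cells, and Traj18 had 0.0168% and 2.94%. The remaining leaders per cell were Traj49 (4.33%), Traj57 (3.45%), Traj47 (3.15%) and Traj17 (2.14%) in CD8-IFNγRKO and Traj32 (4.20%), Traj30 (2.43%) and Traj52 (1.73%) in control.

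Traj7 was alike per cell, in 14.8% (13.9 to 15.7) of the CD8-IFNγRKO and 13.7% (12.7 to 14.8) of the control receptor cells, although its largest clones were different. These intervals count cells of 1 clone as separate draws. The CD8-IFNγRKO Traj7 clones of 315 and 255 cells had the same beta sequence, so the likeness rests largely on a few clone sizes. Per clone it led in control, with 29 of 245 clones (11.8%, 8.07 to 16.6), while in CD8-IFNγRKO it had 18 of 418 (4.31%, 2.57 to 6.72). Traj22 and Traj26 led per clone in CD8-IFNγRKO, with 25 clones each (5.98%), and Traj22 had 16 control clones (6.53%). Traj31 had 15 and 14 clones, Traj23 had 19 and 11, and Traj40 had 19 and 7. The difference of J usage between the tumors was 63.8% per cell and 21.9% per clone.

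**Figure D2:**
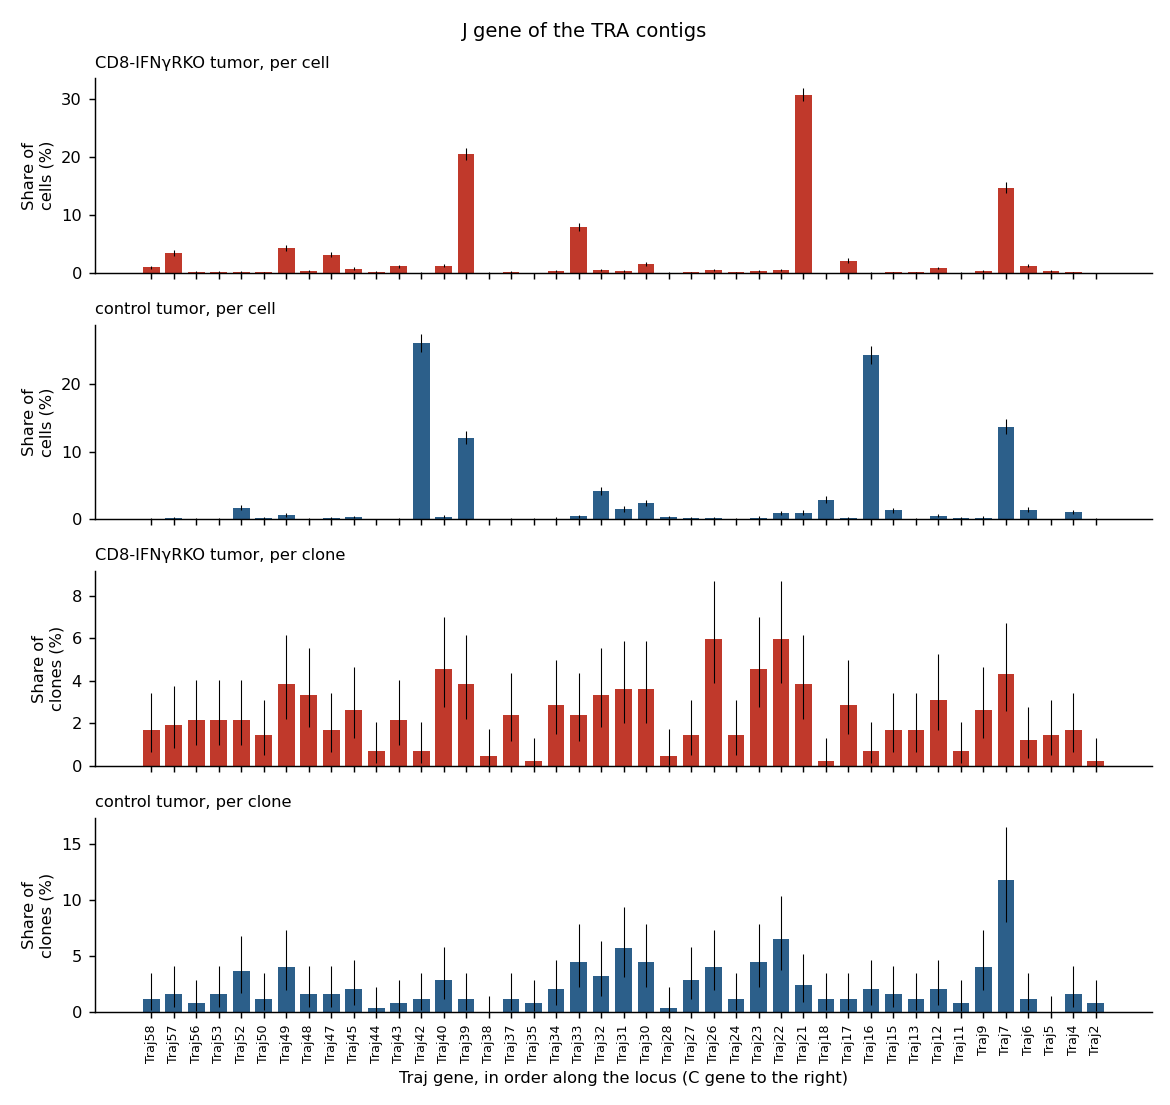
Share (%, y axis, with a scale of its own in each panel) of cells (upper panels) and clones (lower panels) that used each Traj gene, in order along the locus, in the CD8-IFNγRKO (red) and control (blue) tumors, with Clopper-Pearson 95% intervals. Per cell a few J genes stand out, Traj21 at 30.8% in CD8-IFNγRKO and Traj42 at 26.0% in control, and Traj7 is near 14% in both, while per clone the highest bar is Traj7 in control at 11.8%.

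The share of Traj7 was higher among larger clones in both tumors. In CD8-IFNγRKO it was the J gene of 7 of 350 clones of 1 cell (interval 0.808 to 4.08%), 5 of 40 clones of 2 to 9 cells (12.5%, 4.19 to 26.8) and 6 of 28 clones of 10 or more cells (21.4%, 8.30 to 41.0). In control it was 8 of 173 (4.62%, 2.02 to 8.91), 9 of 38 (23.7%, 11.4 to 40.2) and 12 of 34 (35.3%, 19.7 to 53.5). The split by size was added, and Traj7 singled out for it, after the values were seen, and clones of 1 pool of mice are not independent samples of a genotype, so these shares are a description with no test. Over every barcode with a TRA contig, the middle class was lower, 7.35% and 14.8%, and with contigs of at least 3 UMIs the class of 1 cell was higher, 3.02% and 7.26%, with the order of the sizes kept.

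**Figure D3:**
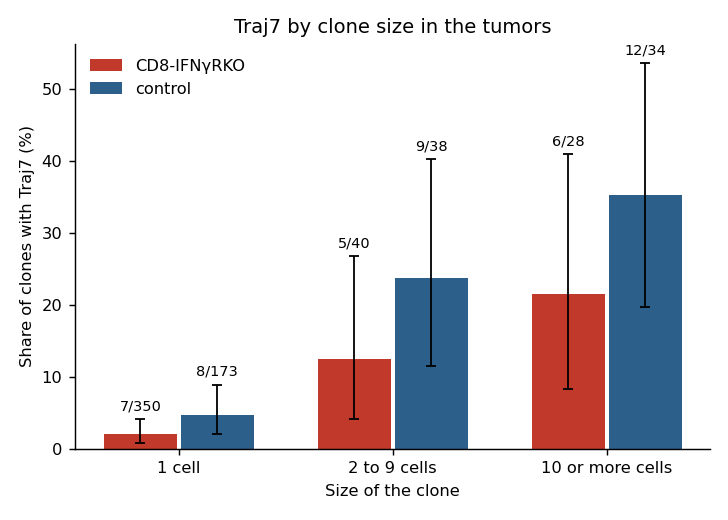
Share of clones with Traj7 (%, y axis) by clone size (x axis) in the CD8-IFNγRKO (red) and control (blue) tumors, with Clopper-Pearson 95% intervals and counts of clones above the bars. Both tumors go from under 5% of clones of 1 cell to 21.4% and 35.3% of clones of 10 or more cells.

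Of the 30 J genes with at least 10 clones over both tumors, Traj7 had the largest difference between clones of more than 1 cell and clones of 1 cell, 14.2 percentage points in CD8-IFNγRKO and 24.5 in control. Traj33 came next in CD8-IFNγRKO, with 7 of 68 larger clones and 3 of 350 single cells (9.44 points), but had 4 of 72 and 7 of 173 in control (1.51 points). Traj32 came next in control (3.24 points). Traj23 was lowest in both, with 1 of 68 and 18 of 350 in CD8-IFNγRKO and 0 of 72 and 11 of 173 in control. Among the 26 V genes with as many clones, Trav7d-2 had the largest difference in both, 6.82 points in CD8-IFNγRKO and 5.79 in control. Of the 7 Trav7d-2 clones of the control tumor, 5 used Traj7, with 129 of the 131 cells. The only Trav7d-2 clone with Traj7 in the CD8-IFNγRKO tumor had 7 cells.

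The Traj7 clones used 14 V genes in 18 CD8-IFNγRKO clones and 18 V genes in 29 control clones, and no V gene held more than 3 and 5 of them. The shared end was in 31 of 32 Traj7 clones of more than 1 cell and in 12 of 15 of 1 cell. Before the shared end stood 12 to 18 bases in every clone that had it, with a median of 15 in both tumors. The length of the shared end was chosen so that at least 80% of Traj7 clones held it, and ends of 21 to 29 bases met the same rule for the other J genes compared.

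Some large clones carried a pair of alpha chains. Cells with 2 TRA contigs were 980 in CD8-IFNγRKO (16.2% of kept cells with a TRA contig) and 108 in control (2.47%). In CD8-IFNγRKO the Trav8d-2 and Trav7d-5 sequences with Traj7 shown above came from 1 beta chain sequence, that of 704 cells, and were found together in 524 of them. Trav21-dv12 with Traj57 and Trav6-7-dv9 with Traj43 were found together in 218 of 259 cells, and Trav14d-2 with Traj17 and Trav16n with Traj30 in 148 of 164. In control the largest such group was Trav13n-1 with Traj4 and Trav13n-1 with Traj7, in 46 of 65 cells. A definition by the leading alpha contig thus split each of these into more than 1 clone. The same definition also counted cells of different beta sequences as 1 clone, in 8 CD8-IFNγRKO and 9 control clones. Among these were the control Trav7d-2 clones with Traj7 of 67 and 28 cells, with 2 and 4 beta sequences. With 1 clone per beta sequence, Traj7 was the J gene of 5 of 24 CD8-IFNγRKO and 11 of 32 control clones of 10 or more cells (20.8% and 34.4%), against 1.97% and 4.49% of clones of 1 cell.

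To compare both assays in the same cells, the V gene of the alpha contig was set beside the leading Trav gene of the scRNA-seq, which needed at least 2 UMIs and more than any other. In CD8-IFNγRKO the assays named the same gene in 2086 of 4030 cells (51.8%, 50.2 to 53.3). In control they did so in 2707 of 3087 (87.7%, 86.5 to 88.8). Counting D and N copies as their namesake gave 53.1% and 88.5%. Only the leading contig was compared, so a Trav gene that matched a second contig counted as a mismatch. In CD8-IFNγRKO, Trav8d-2 led in 238 of 238 Trav7d-5 cells and Trav16n in 94 of 96 Trav14d-2 cells, the pairs above. Larger groups of mismatches were Trav14n-3 in 605 of 613 Trav7d-2 cells and Trav6n-5 in 755 of 783 Trav12d-3 cells. Over cells with exactly 1 TRA contig, the CD8-IFNγRKO share was 49.6%. The V genes fell into those that the scRNA-seq counted in nearly every cell and those that it hardly counted at all. Trav8d-2, Trav12-2, Trav14-2 and Trav12-3 had a UMI in 99.9 to 100% of the cells whose contig carried them. Over the V genes with at least 20 cells the median was 98.4% in CD8-IFNγRKO and 93.4% in control, against medians of 0.278% and 0.0717% in the other cells of the same library, whose median depth over all kept cells was 9402.5 and 6308 UMIs. The other cells can hold the gene in a second contig, and Trav8d-2 was seen in 259 of 5620 of them in CD8-IFNγRKO. Some V genes with fewer contig cells were seen more often in the other cells. In CD8-IFNγRKO Trav14n-3 was seen in 17.9% of them. In control Trav12-2 was seen in 20.4%, Trav3-3 in 8.74% and Trav9-4 in 7.97%.

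Trav7d-2 had a UMI in 14 of its 1493 CD8-IFNγRKO cells (0.938%) and 1 of its 131 control cells (0.763%). Trav12d-3 had one in 0 of 1214 CD8-IFNγRKO cells and in 2 of 130 control cells. Trav13d-2 had none in 517 control cells, and Trav7d-5 none in 258 CD8-IFNγRKO cells. In all, 6 of 24 V genes in CD8-IFNγRKO and 9 of 22 in control were seen in under 5% of their own cells, namely Trav7d-2, Trav12d-3, Trav14d-1, Trav14d-2 and Trav6-6 in both, Trav7d-5 in CD8-IFNγRKO and Trav13d-2, Trav9d-3, Trav3d-3 and Trav12d-2 in control. They were the V genes of 55.8% of CD8-IFNγRKO and 27.9% of control receptor cells. All but Trav6-6 are D copies. Near-identical copies make the gene assignment of both assays uncertain, and their part in the missing UMIs was not tested. For these genes a low Trav count says nothing about use.

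**Figure D4:**
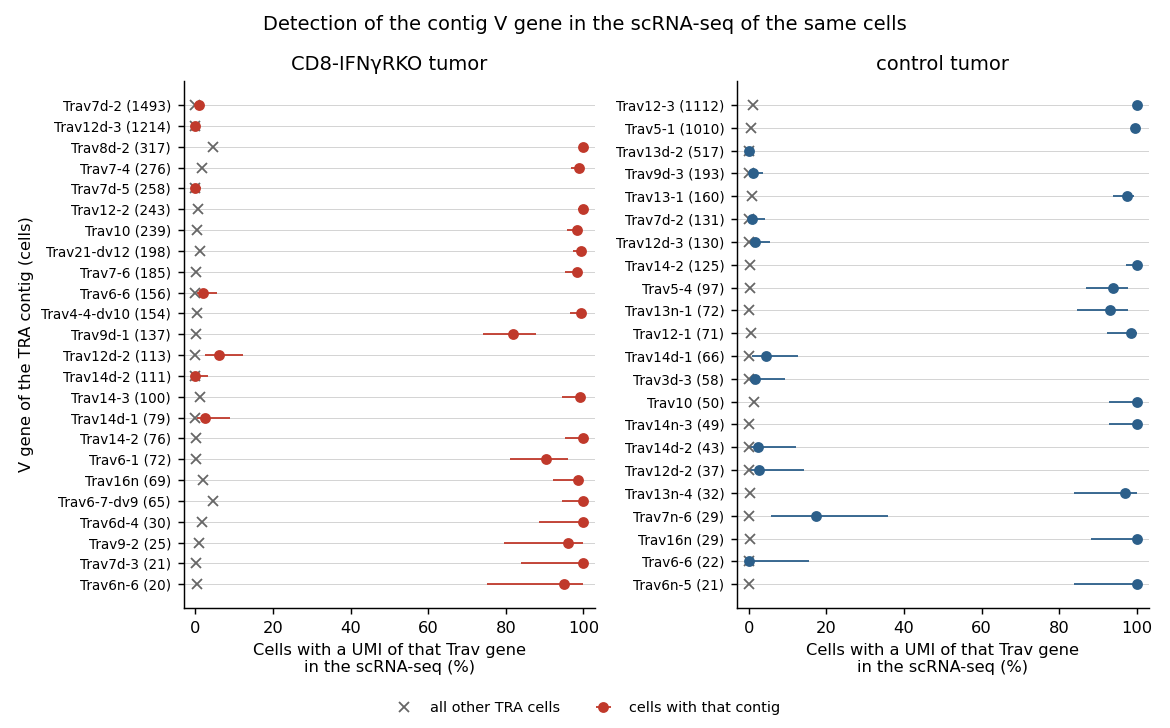
Share of cells (%, x axis) with a scRNA-seq UMI of the Trav gene that their leading TRA contig carries. V genes with at least 20 cells (number in parentheses) are drawn for the CD8-IFNγRKO (left) and control (right) tumors. Filled points with Clopper-Pearson 95% intervals are the cells with that contig, red at left and blue at right. Crosses are all other cells with a TRA contig, which can hold the gene in a second contig. All points but that of Trav7n-6 lie above 80% or under 7%, with Trav7d-2, Trav12d-3 and Trav13d-2 among those near 0%. V genes with fewer cells are not drawn, among them Trav12-2 in control, which was seen in 20.4% of the other cells.

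The clones with an uncounted V gene showed another Trav gene in the scRNA-seq. In the Trav7d-2 clone with Traj21, 2320 of 2513 Trav UMIs were of Trav14n-3, seen in 72.5% of the 1463 cells, and these were 98.1% of all Trav14n-3 UMIs in receptor cells. In the Trav12d-3 clone with Traj39, 2951 of 3681 were of Trav6n-5, seen in 86.2% of the 1200 cells, although none of the 5937 kept cells with both chains had a Trav6n-5 contig, first or second, and 1 of all 7096 barcodes with a TRA contig did. In the Trav13d-2 clone of control, 545 of 1259 were of Trav9-4 and 471 of Trav3-3. Copies of the contig gene were counted in some of these clones. The Trav12d-3 clone with Traj39 had 455 UMIs of Trav12n-3, its second Trav gene. In the control Trav12d-3 clone with Traj30, 37 of 42 Trav UMIs were of Trav12n-3. Trav6n-5 was among the 5 highest tumor ratios above and Trav9-4 and Trav3-3 among the 5 lowest. Of the 2959 Trav6n-5 UMIs in CD8-IFNγRKO receptor cells, 0 were in cells with that leading contig. In control receptor cells it was 20 of 607 for Trav9-4 and 146 of 901 for Trav3-3. Among receptor cells of the tumor where each was high, most UMIs of these genes thus came from cells whose leading contig named another V gene.

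A second Trav gene was also seen beside a well counted one. The Trav12-3 clone with Traj42 had 6873 UMIs of Trav12-3 and 1381 of Trav12-2 among 8309. The Trav12-2 clone with Traj33 had 2212 of Trav12-2 and 341 of Trav19 among 2570, and the Trav21-dv12 clone had 2042 of Trav21-dv12 and 1027 of Trav6-7-dv9 among 3087, the pair its contigs also named. The Trav5-1 clone with Traj16 had 7928 of Trav5-1 among 8027, with no second gene above 0.47%. The similar shares of Trav12-2 in the tumors thus came largely from different clones, its own in CD8-IFNγRKO and, in control, the Trav12-3 clone and others.

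The few Traj UMIs matched the contig less often in control. Of the Traj UMIs in receptor cells, 69.6% of 631 in CD8-IFNγRKO and 19.8% of 474 in control were of the cell's own J gene. Traj21 and Traj39 in CD8-IFNγRKO had 180 and 172 UMIs, all in cells with that contig and all in their 2 large clones. In control, Traj13 had 248 UMIs, of which 243 were in 203 cells of the Trav5-1 clone with Traj16, and only 3 receptor cells carried a Traj13 contig. All 44 UMIs of Traj45 were in the Trav12-3 clone with Traj42, and 40 of the 52 of Traj34 were in the Trav13d-2 clone with Traj39. In CD8-IFNγRKO 40 of 44 UMIs of Traj49 were in the Trav12d-3 clone with Traj39. In the whole libraries Traj13 had 45 UMIs in the CD8-IFNγRKO tumor and 387 in the control tumor, against 0 and 11 in LN, and Traj43 had 128, 1, 21 and 12. The ratios of Traj13, Traj21 and Traj39 between the tumors thus followed, among receptor cells, 1 clone each.

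V and J position went together. Over clones, Spearman's rho between the position of the V gene and that of the J gene along chromosome 14 was -0.46 in CD8-IFNγRKO (418 clones) and -0.42 in control (245 clones), and -0.45 (350) and -0.37 (173) over clones of 1 cell. These are descriptions over clones that share a library. The V position rests on telling D and N copies from their namesakes, which near-identical copies make uncertain. The effect of that on rho and on the parts below was not tested. The V genes were divided by position into 3 parts. The part closest to the J genes, from Trav7-4 to Trav23, was joined to a J gene from Traj61 to Traj31, the ones closest to the V genes, in 136 of 197 CD8-IFNγRKO clones (69.0%, 62.1 to 75.4) and 74 of 109 control clones (67.9%, 58.3 to 76.5). For the most distant part, from Trav1 to Trav8d-2, it was 48 of 140 (34.3%, 26.5 to 42.8) and 25 of 90 (27.8%, 18.9 to 38.2). For the middle part it was 32.1% (22.2 to 43.4) of 81 and 17.4% (7.82 to 31.4) of 46 clones. In each tumor the part closest to the J genes had the highest share. The middle part had a lower share than the most distant one, but their intervals overlapped in both tumors.

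**Figure D5:**
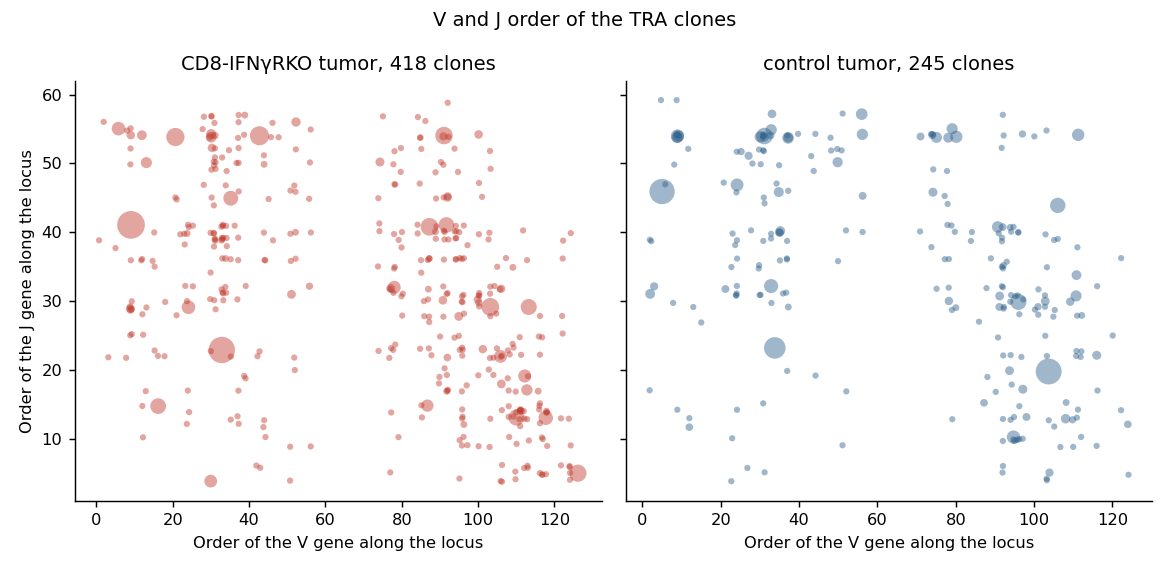
Order of the V gene (x axis) against that of the J gene (y axis) along the locus for each clone in the CD8-IFNγRKO (left) and control (right) tumors, with point area growing with the number of cells and points shifted slightly at random so that they do not hide each other. Clones at right lie lower, which is Spearman's rho of -0.46 and -0.42. The V order rests on telling D and N copies from their namesakes, which is uncertain.

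The invariant alpha chains of other T cell types were looked for by name. Over every TRA contig of the kept cells with both chains, none carried Trav11 or Trav11d with Traj18, the pair of NKT cells. None carried Trav1 with Traj33, that of MAIT cells. The cells were sorted on CD8, and the kept ones needed UMIs of Cd2, Cd8a and Cd8b1, so cells without CD8 could not be found. By a limit of 3 counts, a count of 0 allows up to 0.0505% of CD8-IFNγRKO and 0.0700% of control cells, and the Clopper-Pearson limits are 0.0621% and 0.0861%. Over every barcode with a TRA contig, 1 of 7096 in CD8-IFNγRKO carried the Traj18 pair. The Traj18 cells of the control tumor were nearly all 1 clone with Trav14-2, of 124 cells. The Trav14 family was used by 6.40% (5.79 to 7.05) of the CD8-IFNγRKO and 6.98% (6.23 to 7.78) of the control receptor cells, and by 42 of 418 clones (10.0%) and 27 of 245 (11.0%). In the scRNA-seq it held 12.7% and 7.77% of Trav UMIs in the CD8-IFNγRKO and control tumors and 11.2% and 11.1% in LN. In the CD8-IFNγRKO tumor these included the Trav14n-3 UMIs of the Trav7d-2 clone.

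The genotypes had 6 alpha CDR3 sequences in common. No match of the beta chain was required, so these are shared alpha sequences and do not show shared clones. Besides the Traj7 sequence above, the largest was Trav4-4-dv10 with Traj49, in 149 CD8-IFNγRKO cells and 3 control cells. It is shown because it was the most frequent of the 6.
both tumors, Trav4-4-dv10 with Traj49: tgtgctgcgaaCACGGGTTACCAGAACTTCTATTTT
The other 4 were in 1 to 5 cells of each tumor.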

How the data were processed

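The 4 scRNA-seq files hold UMI counts per gene and barcode, which the authors made with Cell Ranger multi 6.0.0 against mm10 from 5' libraries. The authors deposited the 2 scTCR-seq files as tables of filtered productive contigs with UMI counts. The members, gene lists and tests were chosen with earlier results of these data known, and the split of Traj7 by clone size was added after seeing the data.

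Cells with 200 to 6000 genes, at most 3% mitochondrial UMIs, at most 20% in 1 gene and at least 1 UMI of Cd2, Cd8a and Cd8b1 were kept, which follows the study's filters. No doublet caller was run, and no cluster was removed. UMIs were summed over kept cells. Ratios used CPM plus 1 for genes with at least 100 UMIs over both libraries. Shares have Clopper-Pearson and CPM values exact Poisson intervals, both of counting error only. Contigs were joined by barcode, and cells needed both chains. D and N copies stayed separate. The ratio steps were tested on simulated independent UMI counts. The 2-fold call was tested with 1 CPM added, and the interval without it. Counts that come from a few large clones were not simulated.

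The text names the 8 leading Trav and 5 leading Traj genes of any library by UMIs, the 8 leading V and J genes per cell or clone, the 5 highest and lowest ratios, the genes of the largest clones, the invariant pairs, the Trav14 family and the pathway list. The other genes were chosen after their values were seen. Coordinates are from RefSeq (GRCm38.p6), where all 188 genes matched. Python 3.11.15, numpy 2.4.6, scipy 1.17.1 and pandas 2.3.3 were used.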

Additional observations from a re-analysis of the deposited data

Results flagged for a closer look

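The contig tables also held TRA contigs in barcodes outside the kept cells, 1058 in the CD8-IFNγRKO tumor and 788 in the control tumor. The main comparisons above left them out, and they entered only where every barcode with a TRA contig is named. Of these, 59.5% and 69.2% carried the alpha CDR3 of a clone found among the kept cells.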

How the results depend on the processing

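No paired analysis was possible because each group was 1 library. Over every barcode with a TRA contig, the difference between the tumors was 78.2% for V and 59.2% for J per cell and 19.96% for V per clone, and the probability that a pair of cells shared the gene was 10.7% for V and 15.1% for J in CD8-IFNγRKO and 12.9% and 14.7% in control. With D and N copies merged, V usage differed by 61.4% per cell and 19.6% per clone, and the control probability for V was 16.4%. With only cells of 1 TRA contig, J usage differed by 71.5% per cell, the CD8-IFNγRKO probabilities were 16.4% for V and 21.5% for J, and the assays named the same gene in 49.6% of CD8-IFNγRKO cells. With every TRA contig of a cell the probabilities were 10.1% and 15.4%. With contigs of at least 3 UMIs, J usage differed by 66.7% per cell. With a leading Trav gene of at least 1 UMI the assays named the same gene in 44.8% of CD8-IFNγRKO and 81.3% of control cells, and with at least 3 UMIs in 59.3% and 92.7%. For Trav UMIs, every barcode gave distances of 77.2% between tumors, 4.46% between LN, 54.3% and 54.9% from the CD8-IFNγRKO tumor to the CD8-IFNγRKO and control LN, and 60.6% and 60.5% from the control tumor. Counting cells by leading Trav gene gave 85.1%, 6.79%, 61.2%, 61.0%, 65.3% and 66.2% in that order, and merged copies gave 77.1%, 5.01%, 46.7%, 47.6%, 59.8% and 60.6%. With 5 CPM added, the called Trav genes were 20 between tumors, 29 between CD8-IFNγRKO tumor and LN and 28 between control tumor and LN, and the called Traj genes were 1 between tumors and 0 between CD8-IFNγRKO tumor and LN. Over all genes, 0.971%, 19.2% and 17.8% were called in these comparisons. With at least 20 UMIs or with no filter, 7 Traj genes were called between tumors and 3 between control tumor and LN. The shares over all genes were 2.02% and 25.9% with at least 20 UMIs, and 1.47% and 18.6% with no filter. The alternatives to the share of Traj7, all added after seeing the data, stayed within the intervals given.

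The cause of these moves was not tested beyond the fewer or other cells and genes that each choice takes in. In every one of the alternatives to the distances, the tumors stood farther from each other than the LN did. Traj genes rested on few counts, 415 to 920 UMIs a library, so at most 4 of them reached the minimum of 100 UMIs in a comparison. With 1 library of 3 pooled mice per group, no value separates genotype from mouse.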

Other observations

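The alpha CDR3 had a median of 42 bases over clones in both tumors, with means of 41.2 ± 3.95 (SD over 418 clones) in CD8-IFNγRKO and 41.0 ± 3.98 (SD over 245 clones) in control. Per cell the means were 39.2 and 44.0 bases, since the leading CD8-IFNγRKO clones had 36 bases each and the leading control clone had 51.

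The feature table held 55 Trav genes without a copy letter, 39 D copies and 34 N copies. D copies were the V gene of 64.8% of cells and 34.7% of clones in the CD8-IFNγRKO tumor, and of 28.3% of cells and 33.9% of clones in the control tumor. N copies were that of 2.56% and 6.21% of cells and 12.9% and 16.3% of clones. In the scRNA-seq, D copies held 22.1% of Trav UMIs in the CD8-IFNγRKO tumor, 2.35% in the control tumor, 12.7% in the CD8-IFNγRKO LN and 13.8% in the control LN. N copies held 22.3%, 4.98%, 17.4% and 16.9% in the same order. Among V genes with at least 20 cells, those that the scRNA-seq saw in under 5% of their own cells are D copies, apart from Trav6-6. Among V genes with fewer cells, the N copy Trav6n-7 had a UMI in 0 of 15 CD8-IFNγRKO and 0 of 19 control cells. These UMI shares are thus no measure of the use of D and N copies.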
